A study of Mus musculus with 6 samples.

Results

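The tripartite motif (TRIM) genes were taken as every row of the deposited expression table whose symbol starts with Trim and a digit, which gave 48 genes of the 15415 listed. Of these, 29 reached a mean of at least 1 FPKM in one of the 2 groups and were tested, and 19 stayed below that level. FPKM are the reads of a gene relative to its length and to the depth of the library, so levels of different genes can be set side by side on this scale. The question was which members differed between macrophages with and without Tim-4, and which of them moved with interferon-stimulated genes.

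The RNA came from peritoneal macrophages (PEMs) of 6- to 8-week-old male C57BL/6J mice, harvested 3 days after an intraperitoneal injection of 6% starch. The knockout group was 3 libraries of the genotype LysM-Cre; *Tim-4* fl/fl, where Cre under the lysozyme gene *Lyz2* removes the floxed *Tim-4* gene from myeloid cells. The control group was 3 libraries of the genotype *Tim-4* fl/fl, with the same floxed alleles and no Cre, so that the deletion and the Cre allele cannot be told apart. LPS is the labelled treatment of both groups. The study's methods give 1 μg/ml for 3.5 hours as its way to activate PEMs, but not for the sequenced cells in particular. The labels do not say whether the libraries of a group came from separate mice, so p-values measure the spread between these libraries, which may be technical.

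Most TRIM proteins join a RING domain, 1 or 2 B-boxes and a coiled coil, and act as E3 ubiquitin ligases, with a variable end that chooses the target. A large group of them works in antiviral defence. They bind incoming capsids or antibody-coated particles, or tag sensors such as RIG-I and their adaptors with ubiquitin to raise or limit the production of type I interferon. Many of the antiviral members are themselves switched on by interferon, whereas others, such as the TIF1 group, sit on chromatin or have duties in the cytoskeleton and in muscle.

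The libraries held between 36170767 and 42217558 reads on the listed genes. *Timd4*, which encodes Tim-4, lay between 0.246 and 0.394 FPKM in knockout PEMs and at 19.5, 12.05 and 1.19 FPKM in controls 1 to 3 (limma adjusted p = 0.0715, 0.0436 with the replicate number as a block and 0.000405 without control library 3). The groups were taken from the titles of the libraries, and the genotype entry of the labels names them the other way round. The low *Timd4* lay in the libraries titled as knockout. *Lyz2*, which the Cre allele interrupts, was at 41.4 and 106 FPKM in knockout libraries 1 and 3 and at 4656 FPKM in knockout library 2, against 7090 to 8482 FPKM in the controls. The macrophage markers *Adgre1*, *Csf1r*, *Itgam* and *Cd68* were present in all 6 libraries, but did not move together. Their log2 fold changes, knockout against control, were -0.24, -0.71, -0.26 and 0.62 (limma adjusted p = 0.447, 0.0903, 0.369 and 0.0989). The marker *Fcgr3* was at 0.31 (0.216) and *Mertk* at 1.07 (0.223). *Mertk* lay at 6.15, 12.1 and 5.08 FPKM in knockouts 1 to 3 and 6.36, 3.55 and 0.821 FPKM in controls 1 to 3. Control library 3 stood apart, with the lowest *Timd4* of the controls and the lowest level of all 60 tested genes of the interferon list. For 13.3% of all tested genes that library was the lowest of the 6. In bulk samples, fewer cells of a type and less RNA per cell cannot be told apart.

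PEMs expressed a few TRIM genes strongly. *Trim30a* had the highest mean over the 6 libraries at 156 FPKM, and together with *Trim25* it made up 38.0% of the summed FPKM of the family. In all, 13 members had a mean above 10 FPKM. Summed over the 48 members, the family reached 906, 901 and 755 FPKM in knockouts 1 to 3 and 697, 656 and 446 FPKM in controls 1 to 3, so the groups did not overlap. With 3 libraries against 3, an exact permutation test cannot give a two-sided p below 0.1.

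Gene by gene, no member rose and only *Trim16* fell at an adjusted p below 0.05 (limma on log2(FPKM + 1) over 9030 genes, Benjamini-Hochberg adjustment). Over all tested genes, 2.57% rose and 4.74% fell. At an unadjusted p below 0.05, 7 members were higher (24.1% of the 29, against 9.93% of all tested genes) and 5 were lower (17.2%, against 17.7%). A test on the reads recovered from the FPKM (limma with voom) also called no member higher and only *Trim16* lower, beside 3.07% and 3.39% of all tested genes. At an adjusted p below 0.1, 2 members were higher (*Trim12a* and *Trim25*, where 5.66% of all tested genes were) and only *Trim16* was lower (10.1%). With the replicate number as a block, 3 members passed the threshold upwards, *Trim30c*, *Trim25* and *Trim12a*, where 3.90% of all tested genes rose, and again only *Trim16* passed downwards, where 5.57% fell. The fold changes of the 29 members ran from -0.78 for *Trim16* to 1.50 for *Trim30c* on the log2(FPKM + 1) scale, with a median of 0.08, beside -0.11 over all tested genes. Without control library 1 these medians were 0.02 and -0.17, and without control library 3 they were 0.08 and -0.06. Without control library 1, 4 members rose (*Trim12a*, *Trim14*, *Trim25* and *Trim26*, where 3.06% of all genes rose) and 3 fell (*Trim13*, *Trim16* and *Trim33*, where 5.62% fell). Without control library 3, 2 rose (*Trim12a* and *Trim3*, where 5.87% rose) and only *Trim16* fell (8.93% fell). By sign alone 16 were above 0 and 13 below, where 36.5% of all tested genes were above 0. Scaled by the median of ratios instead, 18 members and 52.1% of all genes were above 0 (*Trim28* and *Trim44* changed sign), and the medians were 0.17 and 0.02.

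**Figure D1:**
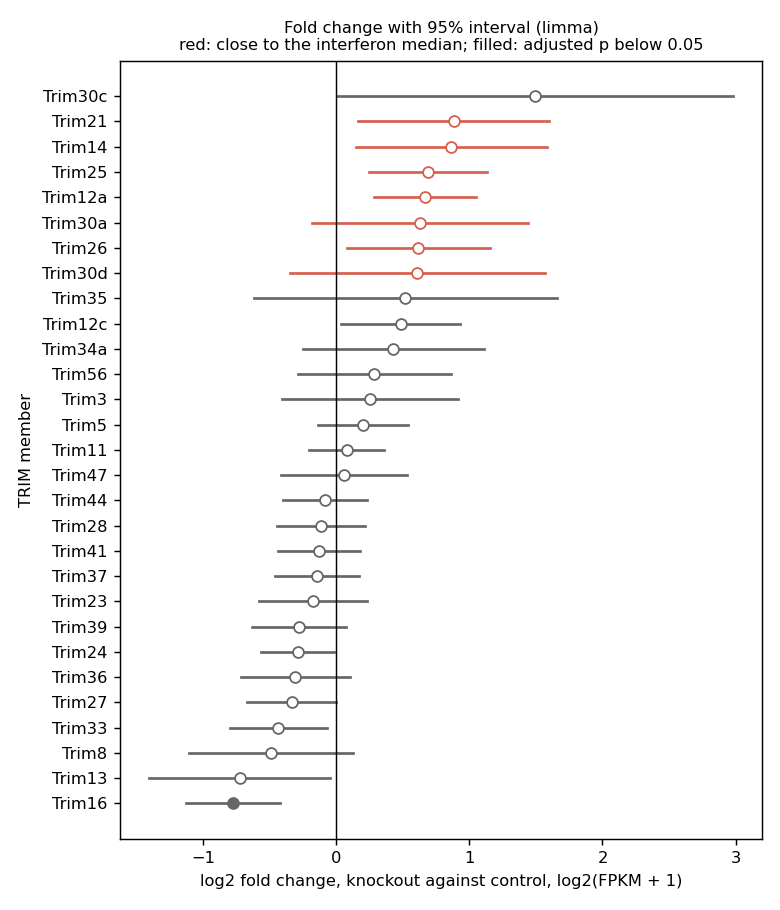
Log2 fold change of the 29 tested TRIM members on the log2(FPKM + 1) scale (x axis), knockout against control, with 95% intervals from limma over 3 libraries a group (bars). Red members were close to the interferon median across the libraries and lay between 0.61 and 0.88; only *Trim16*, the filled point at the bottom, passed an adjusted p of 0.05.

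The interferon list held 64 genes that type I interferon is known to induce, none of them a TRIM gene. All 60 that were listed in the table were tested. In the knockout group 59 had a higher mean and 1, *Iigp1*, a lower one (higher without control library 1 or 2). Over all tested genes, 36.5% had a log2 fold change above 0. The median log2 fold change of the interferon genes was 0.81. Only 2 of the 60 passed the threshold, *Parp14* and *Stat2* (*Stat2* not after rescaling, adjusted p = 0.0523), where 2.57% of all tested genes rose. With the block 19 passed, where 3.90% rose. In each library the median of the 60 genes was taken, with each gene centred on its mean over the 6 libraries (log2(FPKM + 1) scale). It was 0.53, 0.51 and 0.22 in knockout libraries 1 to 3 and 0.14, -0.25 and -1.20 in control libraries 1 to 3. The interferon genes thus stood high in knockout libraries 1 and 2 and far below the rest in control library 3. Without that library their median log2 fold change was 0.43, with 13 past the threshold upwards and 1 downwards (beside 5.87% and 8.93% of all genes). Without control library 1 it was 1.13, with 18 upwards (beside 3.06% of all genes).

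Each member was compared with this interferon median by its distance, the root mean square difference over the 6 libraries divided by the size of the interferon median itself. A gene with the same value in every library has a distance of 1, and a member was called close below 0.5. By this measure 7 of the 29 tested members (24.1%) were close, where 2.82% of all tested genes were. They were *Trim21* at a distance of 0.0793, *Trim14* at 0.179, *Trim30a* at 0.264, *Trim25* at 0.378, *Trim30d* at 0.397, *Trim26* at 0.403 and *Trim12a* at 0.449. Just outside the limit lay *Trim12c* at 0.519, *Trim34a* at 0.535 and *Trim56* at 0.545. These 3 were counted as close, for 10 members in all, with a limit of 0.75 (7.38% of all genes) or after rescaling (3.90%). *Trim5* followed at 0.757 and *Trim30c* at 0.980. *Trim30c* had a larger swing than the interferon median, and its knockout library 3 lay below control library 1, unlike in that median. The 7 close members carried 65.7% of the summed FPKM of the family.

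Control library 3 was the lowest library for 12 of the 29 members, namely the 7 close ones and *Trim12c*, *Trim34a*, *Trim56*, *Trim5* and *Trim30c*. These 12 were also the members with a distance below 1, where 22.2% of all tested genes were. The same library was the highest for 10 members, beside 37.2% of all tested genes. Without that library 5 members were close, *Trim12a*, *Trim14*, *Trim21*, *Trim25* and *Trim26*, where 3.40% of all genes were. With the group means removed, so that only differences within a group counted, 5 members were below 0.5, where 3.93% of all genes were. They were *Trim21* at 0.113, *Trim30a* at 0.224, *Trim14* at 0.281, *Trim56* at 0.396 and *Trim30d* at 0.431.

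**Figure D2:**
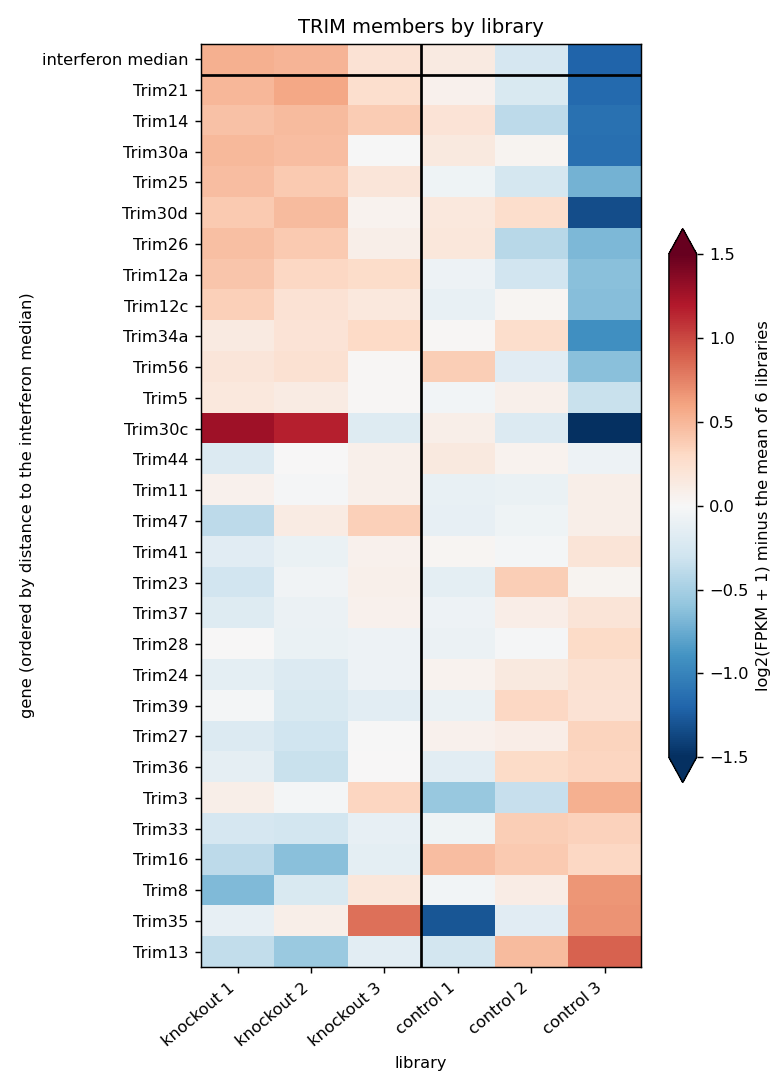
Log2(FPKM + 1) of the 29 tested members in each library, minus the mean of the 6 libraries (colour, capped at 1.5 either way), ordered from top to bottom by distance to the interferon median, which fills the first row. The upper 12 members have their lowest, blue cell in control library 3, and *Trim35* and *Trim13* at the bottom run another way.

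**Figure D3:**
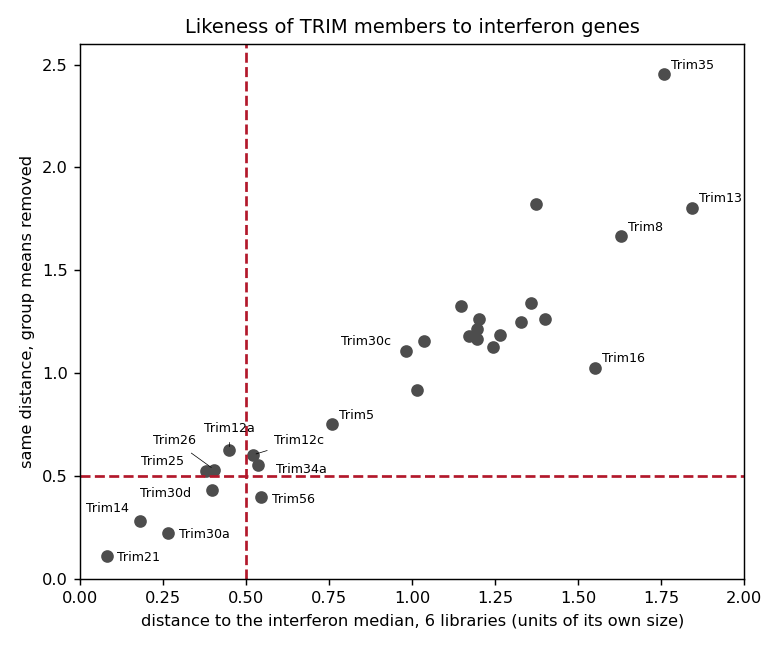
Distance of each tested member to the interferon median over the 6 libraries (x axis) against the same distance with group means removed (y axis), both in units of the size of that median, with dashed lines at the limit of 0.5. *Trim21*, *Trim14*, *Trim30a* and *Trim30d* lie below 0.5 on both axes.

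Of the 10 members within a distance of 0.75, 5 lie in 1 run of TRIM genes in the genome. In the RefSeq annotation of GRCm38.p6, used here only for the order of genes, *Trim6*, *Trim34a*, *Trim5*, *Trim12a*, *Trim34b*, *Trim12c*, *Trim30b*, *Trim30c*, *Trim30a* and *Trim30d* follow each other on chromosome 7 with 1 other protein-coding gene between them. Of the 10 members of the run 7 were tested. All 7 had a higher mean in the knockout group, where 36.5% of all tested genes had a log2 fold change above 0. None passed the threshold, and 2 did with the block, where 3.90% of all tested genes rose. The median log2 fold change of the 7 was 0.61, or 0.22 without control library 3. Elsewhere on the chromosome lie *Trim21*, *Trim68*, *Trim3*, *Trim66*, *Trim72* and *Trim28*, of which *Trim21* and *Trim3* had a higher mean in the knockout group, *Trim28* had a lower one (higher after rescaling) and the others were not tested.

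*Trim21* (Entrez 20821) encodes a cytosolic receptor for the constant part of antibodies and ubiquitinates antibody-coated particles. Its levels were 62.8, 66.8 and 52.8 FPKM in knockout and 46.5, 37.7 and 19.2 FPKM in control PEMs (libraries 1 to 3 of each group, as in all values that follow). The groups did not overlap, as for 11.1% of all tested genes in this direction. The log2 fold change was 0.88 ± 0.31 (SE), with a 95% interval of 0.16 to 1.6 and a limma adjusted p of 0.119. Without control library 3 it was 0.52.

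*Trim30a* (Entrez 20128) encodes a protein that limits NF-κB signalling downstream of Toll-like receptors in mouse macrophages, through the adaptors TAB2 and TAB3. It was at 207, 204 and 147 FPKM in knockout and 164, 152 and 66.5 FPKM in control PEMs. Knockout library 3 lay below control libraries 1 and 2, so the groups overlapped. The log2 fold change of 0.63 ± 0.35 (SE, limma adjusted p = 0.280) was 0.22 without control library 3. Its neighbour *Trim30d* (Entrez 209387) was at 84.2, 89.0 and 66.6 FPKM against 71.3, 77.1 and 24.8 FPKM. Control libraries 1 and 2 lay above knockout library 3, and the log2 fold change of 0.61 ± 0.41 (SE, limma adjusted p = 0.364) was 0.10 without control library 3.

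*Trim30c* (Entrez 434219) had the largest fold change of the tested members. It was at 85.5, 79.1 and 30.2 FPKM in knockout and 36.9, 30.1 and 7.18 FPKM in control PEMs. In each pair of libraries with the same number the knockout was higher, but knockout library 3 lay below control library 1. The log2 fold change was 1.50 ± 0.63 (SE, limma adjusted p = 0.178, 0.0161 with the block). It was 0.81 without control library 3.

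*Trim12a* (Entrez 76681) and *Trim12c* (Entrez 319236) are mouse relatives of human TRIM5, which binds the capsids of retroviruses. *Trim12a* was at 19.9, 18.5 and 17.97 FPKM in knockout and 13.8, 11.8 and 9.12 FPKM in control PEMs. It did not overlap between the groups, and its log2 fold change of 0.67 ± 0.16 (SE, limma adjusted p = 0.0537) passed the threshold with the block (adjusted p = 0.0435), without control library 1 (0.0371) and without control library 3 (0.0427), but not without control library 2 (0.157) or a knockout library (0.0980 to 0.200). *Trim12c* was at 24.4, 21.8 and 21.0 FPKM against 17.3, 19.1 and 11.6 FPKM. Its groups were also apart, with a log2 fold change of 0.48 ± 0.19 (SE, limma adjusted p = 0.158), or 0.28 without control library 3. *Trim5*, the third of these relatives, was near 2 FPKM and overlapped between the groups, with 2.21, 2.13 and 1.91 FPKM against 1.79, 2.03 and 1.27 FPKM (log2 fold change 0.20, or 0.08 without control library 3). *Trim34a* was at 22.3, 23.4 and 25.0 FPKM against 20.4, 24.3 and 10.2 FPKM, so control library 2 reached the knockout level. Its log2 fold change of 0.43 was 0.08 without control library 3.

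These paralogs resemble each other in sequence. In the GENCODE M21 transcripts, 29.5% of the 50-base windows of *Trim5*, 28.8% of those of *Trim12c* and 39.8% of those of *Trim34a* also occurred in another member, against 7.86% for *Trim12a*, 7.49% for *Trim30d*, 5.98% for *Trim30a* and 0.66% for *Trim30c*. How reads that match several genes were counted is not given in the sources used here, so the split of reads among these genes is uncertain. *Trim21* and *Trim14* shared no window with another member.

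**Figure D4:**
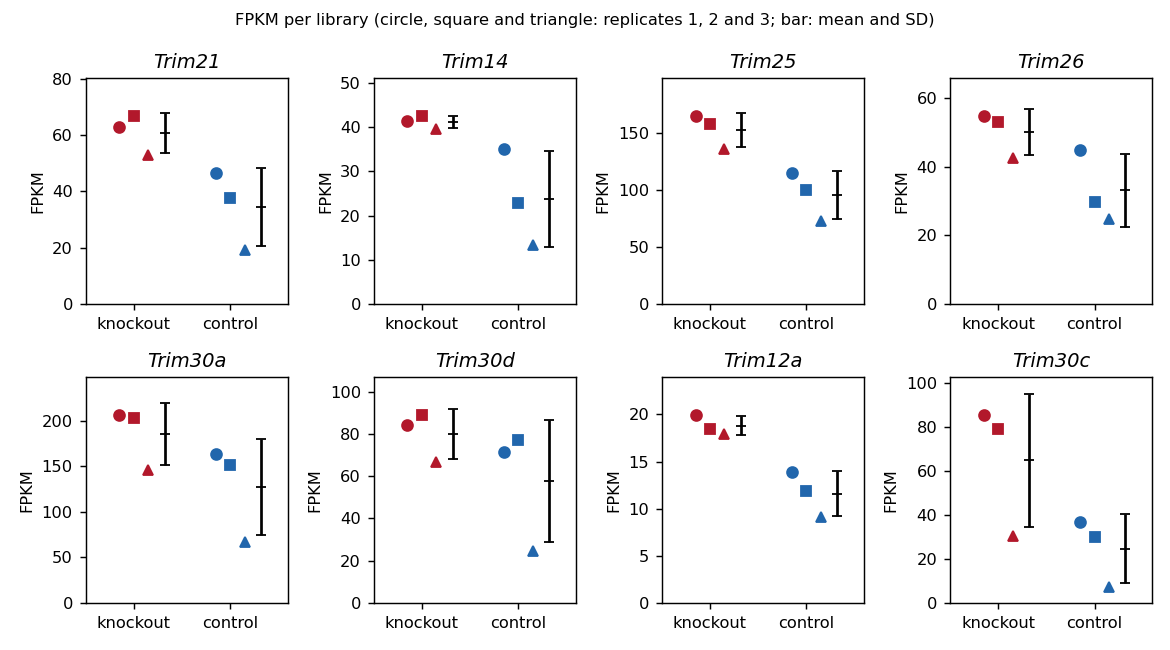
FPKM per library of 8 TRIM members (y axis, linear from 0), with circle, square and triangle for libraries 1, 2 and 3 of the knockout (red) and control (blue) groups and black bars for mean and SD (n = 3). *Trim21*, *Trim14*, *Trim25* and *Trim12a* do not overlap between the groups, and in *Trim30a*, *Trim30d*, *Trim26* and *Trim30c* at least 1 control library reaches above knockout library 3.

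Members that act on the sensing of viral RNA and DNA were split. Of the 17 listed, 11 were tested, 5 with a higher and 6 with a lower mean in the knockout group (*Trim44* among the latter changed sign after rescaling), and none passed the threshold. *Trim25* (Entrez 217069), which attaches ubiquitin to the RNA sensor RIG-I, was at 165, 158 and 136 FPKM in knockout and 115, 99.6 and 73.0 FPKM in control PEMs. The groups did not overlap. The log2 fold change was 0.69 ± 0.19 (SE), with a 95% interval of 0.24 to 1.13 and a limma adjusted p of 0.0695. It passed the threshold with the block (adjusted p = 0.0419) and without control library 1 (0.0454), but not without any other single library (0.0595 to 0.247).

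*Trim14* (Entrez 74735), a member without a RING domain that serves as an adaptor in antiviral signalling, was at 41.3, 42.5 and 39.7 FPKM against 35.1, 22.8 and 13.4 FPKM. The knockout libraries lay within 3 FPKM of each other and above all controls, which spread widely. The log2 fold change was 0.87 ± 0.30 (SE, limma adjusted p = 0.124). Without control library 1 it was 1.19 (adjusted p = 0.0359), and without control library 3 it was 0.53.

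*Trim26* (Entrez 22670), a regulator of the transcription factor IRF3, was at 54.8, 53.0 and 42.4 FPKM against 44.9, 29.6 and 24.7 FPKM. Control library 1 lay above knockout library 3, and the log2 fold change was 0.62 ± 0.23 (SE, limma adjusted p = 0.137, 0.0386 without control library 1). *Trim56*, which promotes signalling by the DNA-sensing adaptor STING, was at 31.3, 32.6 and 28.0 FPKM against 35.9, 24.5 and 17.5 FPKM. Its highest library was a control, and its log2 fold change was 0.29 (95% interval -0.29 to 0.86, limma adjusted p = 0.478). Without control library 1 it was 0.54, and without control library 3 it was 0.04.

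On the other side of the same role group stood *Trim13*, *Trim8*, *Trim27*, *Trim23*, *Trim44* and *Trim41*. *Trim13* (Entrez 66597), a ligase anchored in the endoplasmic reticulum, was at 5.17, 4.40 and 6.14 FPKM in knockout and 5.57, 10.1 and 13.7 FPKM in control PEMs. Control library 1 lay among the knockout libraries, and the log2 fold change was -0.72 ± 0.29 (SE, limma adjusted p = 0.160). It was -1.04 without control library 1 (adjusted p = 0.0336) and -0.46 without control library 3 (0.242). *Trim8*, a ligase in TNF signalling, was at 4.78, 6.79 and 9.26 FPKM against 7.89, 8.90 and 13.5 FPKM, with overlap (log2 fold change -0.49, limma adjusted p = 0.269, and -0.28 without control library 3). *Trim27* was at 3.35, 3.07 and 4.0 FPKM against 4.25, 4.36 and 5.31 FPKM, without overlap (log2 fold change -0.33, limma adjusted p = 0.178). Across all genes, 23.0% lay apart in this direction. *Trim23*, *Trim44* and *Trim41* had log2 fold changes between -0.17 and -0.08, and *Trim11*, on the higher side, of 0.08. After rescaling *Trim23* was at -0.075, *Trim44* at 0.04, *Trim41* at -0.00038 and *Trim11* at 0.17. The small main values of these 4 members moved by over 1.5 times with 1 library left out. *Trim23* ran from -0.29 without control library 1 to -0.03 without control library 2, *Trim44* from -0.15 without knockout library 3 to -0.0029 without knockout library 1, *Trim41* from -0.20 without knockout library 3 to -0.07 without control library 3, and *Trim11* from 0.05 without control library 1 to 0.15 without control library 3.

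The TIF1 members are chromatin-bound regulators of transcription, and 3 of the 4 were tested. None passed the threshold. *Trim33*, which works with SMAD proteins, was at 2.66, 2.596 and 2.97 FPKM in knockout and 3.16, 4.62 and 4.50 FPKM in control PEMs, without overlap (log2 fold change -0.43 ± 0.15 (SE), limma adjusted p = 0.126, 0.0467 without control library 1). *Trim24*, a reader of histone marks, was at 0.724, 0.662 and 0.813 FPKM against 0.987, 1.12 and 1.24 FPKM. It too was apart, with a log2 fold change of -0.29 (limma adjusted p = 0.163). *Trim24* reached 1 FPKM in the control group alone, so it entered the test through the group where it was higher. *Trim28*, the corepressor of KRAB zinc finger proteins that silences retroelements, was at 20.7, 19.1 and 19.4 FPKM against 19.2, 20.2 and 25.2 FPKM. The difference was -0.12 on the log2 scale (95% interval -0.45 to 0.21, limma adjusted p = 0.624), 0.03 after rescaling and -0.0015 without control library 3.

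*Trim16* (Entrez 94092) was the member that fell. It encodes a protein without a RING domain that takes part in the autophagy of damaged lysosomes. It was at 0.380, 0.180 and 0.639 FPKM in knockout and 1.50, 1.38 and 1.25 FPKM in control PEMs. The knockouts all lay below the controls, and the member reached the level of 1 FPKM needed for the test in the control group alone. In a fit without that filter its adjusted p was 0.0423. The log2 fold change was -0.78 ± 0.15 (SE, limma adjusted p = 0.0297), or -1.82 on the scale of the recovered reads, where no pseudocount of 1 FPKM compresses low genes. The call was kept with the block (adjusted p = 0.0392). Leaving out knockout library 1 (adjusted p = 0.114), knockout library 2 (0.131) or control library 2 (0.127) ended it. Its distance to the interferon median was 1.55.

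*Trim35*, a ligase that binds the glycolytic enzyme PKM2, was abundant and ran apart from the interferon genes, at a distance of 1.76. It was at 28.3, 33.0 and 55.6 FPKM in knockout and 12.1, 27.6 and 50.1 FPKM in control PEMs. Library 3 was the highest of each group, and in each pair of libraries with the same number the knockout was higher. Its log2 fold change was 0.52 (95% interval -0.62 to 1.66, limma adjusted p = 0.515, 0.185 with the block). Without control library 3 it was 0.99, and without control library 1 it was 0.0055. *Trim3*, an NHL-domain member known from neurons, was at 7.60, 6.93 and 9.05 FPKM against 4.42, 5.36 and 10.6 FPKM. Its highest library was control library 3, without which the log2 fold change went from 0.26 to 0.59 (limma adjusted p = 0.0494). Without control library 1 it was 0.04 (adjusted p = 0.937), and without control library 2 it was 0.15 (0.828). *Trim36*, which binds microtubules, had a log2 fold change of -0.30 (limma adjusted p = 0.296), or -0.46 without control library 1 and -0.17 after rescaling. For *Trim37*, a ligase of histone H2A, it was -0.14 (limma adjusted p = 0.514), or -0.08 without control library 3 and -0.06 after rescaling. The remaining tested members, *Trim39* and *Trim47*, had log2 fold changes of -0.28 and 0.06, the latter between -0.10 without knockout library 3 and 0.27 without knockout library 1.

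The 19 untested members had means over the 6 libraries of at most 0.970 FPKM, and 4 of them had means below 10 reads. They were *Trim2*, *Trim6*, *Trim7*, *Trim9*, *Trim17*, *Trim29*, *Trim30b*, *Trim32*, *Trim34b*, *Trim43b*, *Trim45*, *Trim46*, *Trim59*, *Trim62*, *Trim65*, *Trim66*, *Trim68*, *Trim69* and *Trim72*, with *Trim7* and *Trim72* known from muscle. *Trim32*, an NHL-domain member, was at 0.814, 1.01 and 1.101 FPKM against 0.646, 0.864 and 1.39 FPKM and overlapped. *Trim65*, which acts on the RNA sensor MDA5, was at 0.0925, 0.0580 and 0.0985 FPKM against 0.219, 0.215 and 0.211 FPKM and fell at an adjusted p below 0.05 in a fit without a filter. That fit called no member higher and *Trim16* and *Trim65* lower, beside 0.915% and 1.98% of all 15415 genes. In all, 2 of the 19 (*Trim29* and *Trim6*) lay above the controls in every knockout library and 4 (*Trim59*, *Trim65*, *Trim7* and *Trim9*) below. Of all 6385 genes under that level, 7.50% and 18.8% were so placed.

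The promoters of the members were searched for the core of the interferon-stimulated response element, which is GAAA, any 2 bases and GAAA again, on either strand. The sequences were those of RefSeq on GRCm38.p6, from 250 bases before to 50 after the annotated start, and 21 of the 29 tested members had one. *Trim14* was among the tested members with no entry. The motif occurred in 8 of the 21 (38.1%), in 24 of 49 genes of the interferon list (48.98%) and in 4.25% of 7315 tested genes, and 3.44% of all 32851 promoters held it. Among the close members with an entry it was in 5 of 6, all but *Trim25*, and among the other tested members in 3 of 15, namely *Trim12c*, *Trim34a* and *Trim5*. The motif TTCNNNGAA of interferon-gamma activated sites was in 1 of the 21, against 8.3% of all promoters. A match is a description of the letters and not a binding site. *Trim30a* and *Trim30d* share their window, as do *Trim12a* and *Trim5*, so these counts do not come from independent sequences. The following 30-base windows, on the strand of the gene, show the match in capitals for the members that lay closest to the interferon median, and for *Trim12c*, *Trim5* and *Trim34a* beside them:
Trim21: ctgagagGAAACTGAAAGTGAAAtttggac
Trim26: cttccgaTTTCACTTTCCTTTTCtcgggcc
Trim30a: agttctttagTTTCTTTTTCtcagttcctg
Trim30d: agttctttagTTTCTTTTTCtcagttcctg
Trim12a: agagttgtggTTTCTGTTTCatttccagag
Trim5: agagttgtggTTTCTGTTTCatttccagag
Trim12c: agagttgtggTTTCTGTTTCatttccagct
Trim34a: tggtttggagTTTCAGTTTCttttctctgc

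*Trim21* (chr7:102565433-102565732, minus strand) and *Trim26* (chr17:36836896-36837195, plus strand) each held 2 overlapping matches, the first starting 13 bases after the start in *Trim21* and 160 bases before it in *Trim26*. *Trim30a* (chr7:104465144-104465443, minus strand) and *Trim30d* (chr7:104507800-104508099, minus strand) had the same 30 letters, at 36 and 41 bases before the start, and the other annotated promoter of *Trim30a* held a match as well. *Trim12a* (chr7:104315446-104315745, minus strand) and *Trim5* (chr7:104288057-104288356, minus strand) also shared 1 window, and *Trim12a* was at 18.8 ± 1.02 FPKM (SD, n = 3) in the knockout group and *Trim5* at 2.08 ± 0.157 FPKM. *Trim12c* (chr7:104353300-104353599, minus strand) and *Trim34a* (chr7:104244207-104244506, plus strand) held 1 match each.

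TRIM ligases receive ubiquitin from conjugating enzymes, which are loaded by an activating enzyme. Of 15 genes for such enzymes, all tested, 3 had a higher and 12 a lower mean in the knockout group (6 were higher after rescaling), and none passed the threshold. The median log2 fold change was -0.18, or -0.04 after rescaling and -0.11 without control library 3. *Ube2l6*, which conjugates ISG15 and is itself in the interferon list, was the only one close to the interferon median, at 123, 124 and 106 FPKM against 93.9, 83.8 and 61.5 FPKM (log2 fold change 0.57, limma adjusted p = 0.0967).

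Of 24 genes listed around nucleic acid sensing and its signalling, 22 were tested. Of these, 1 rose and 2 fell, where 2.57% and 4.74% of all tested genes did. With the block 2 rose (*Fcgr1* and *Rnf135*) and 1 fell (*Ikbkg*), where 3.90% and 5.57% of all tested genes did. *Fcgr1*, an antibody receptor and no sensor of nucleic acids, rose, with 50.2, 57.5 and 36.1 FPKM against 5.16, 5.76 and 6.58 FPKM (log2 fold change 2.82, limma adjusted p = 0.00150). *Ikbkg*, the NF-κB adaptor NEMO, fell (log2 fold change -1.34, limma adjusted p = 0.0204), as did *Vcp*, an ATPase that extracts ubiquitinated proteins (log2 fold change -0.57, limma adjusted p = 0.0353, 0.0527 with the block and 0.0766 after rescaling). *Ddx58*, the gene of RIG-I and the target of *Trim25*, was at 133, 128 and 106 FPKM against 112, 75.6 and 33.2 FPKM. It is in the interferon list and so part of the median it was close to, and it did not pass the threshold (log2 fold change 0.88, limma adjusted p = 0.204). *Mavs*, the adaptor of RIG-I, had a log2 fold change of -0.0012 (limma adjusted p = 0.997), and its sign changed with rescaling.

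TRIM-type genes with other symbols were looked up as well. *Pml*, the organiser of nuclear bodies and an interferon-induced gene, was at 30.8, 29.6 and 22.7 FPKM in knockout and 34.0, 19.8 and 9.61 FPKM in control PEMs. It overlapped between the groups (log2 fold change 0.52, limma adjusted p = 0.425, and 0.07 without control library 3). *Mefv*, the gene of pyrin, had a log2 fold change of 0.25 (limma adjusted p = 0.391), *Mid1* of -0.05 (0.03 after rescaling), and *Mid2* was below the level tested.

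Markers of other cells also differed between the groups. Of the 8 tested B-cell markers 7 fell, with a summed level of 11.2 to 12.5 FPKM in the knockout and 36.8 to 137 FPKM in the control libraries, and *Cr2* was at 0 in all knockout libraries. All 5 tested mast-cell markers fell, 4 with the block, all but *Kit* (summed level 1.95 to 2.33 against 38.5 to 49.8 FPKM). Of the large peritoneal macrophage markers 4 of 8 fell (5 with the block, where *Timd4* joined), of the small 2 of 5 and of the neutrophil markers 2 of 4. For mesothelial and fibroblast markers none of 5 passed the threshold, 2 rose with the block (*Col1a1* and *Col1a2*), and their summed level was 13.8 to 36.5 FPKM against 2.13 to 16.9 FPKM. Of the T-cell markers 1 was tested and did not pass the threshold. Of the plasmacytoid dendritic cell list 3 of 6 genes were tested, and its defining marker *Siglech* was at most 0.0536 FPKM in every library. *Spib*, a transcription factor also of B cells, fell (log2 fold change -1.86, limma adjusted p = 0.0216), and *Bst2*, an interferon-induced gene, and *Tcf4* did not pass the threshold (0.73 and 0.26). The summed level of the list, mostly *Bst2*, was 243 to 266 FPKM against 106 to 222 FPKM. The part of these differences in the TRIM values was not tested.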

How the data were processed

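RNA of PEMs was sequenced in 6 libraries, 3 knockout and 3 control, grouped by title. The authors deposited 1 table with FPKM per gene and library. Its signal columns, deposited by the authors, are mean read counts per group after DESeq2 scaling. The authors also deposited the results of their own DESeq2 comparison, namely a fold change (a ratio), a log2 fold change, a p-value and a q-value for each gene, and these were not used. The submitters' processing notes name the build mm9. The aligner, the annotation and whether strand was used in counting are not given in the sources used here, so overlapping and antisense genes cannot be told apart. No mm9 genome was used, and promoter sequences are those of RefSeq on GRCm38.p6. Whole reads were recovered from FPKM and group means for 100% of the values in each library, within 0.01 reads. 

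The table holds FPKM, so limma 3.58.1 (R 4.3.3, trended eBayes, two-sided) was run on log2(FPKM + 1) for the 9030 genes whose mean reached 1 FPKM in a group. Benjamini-Hochberg adjustment covered these genes, with a threshold of 0.05. Fold changes on the log2(FPKM + 1) scale understate the change of low genes. The interferon median was taken over the tested genes of the list, and likeness to it is a description without a test. The fit was tested on simulated data.

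The members and lists were chosen with earlier results of these data known. Values per library are given for members past the threshold, the 8 closest to the interferon median, the 5 largest increases and decreases, and set role examples. Other members and the genes named from the interferon, enzyme, sensor and marker lists were named after their values were seen. Replicate numbers were checked for pairing. Deviations from the group means correlated at 0.109, 0.110 and 0.304 for libraries of the same number and between -0.33 and 0.29 for other numbers. Knockout library 2 and control library 1 correlated at 0.291, above the same-number pairs of libraries 1 and 2. The pairing rests on this check alone, which cannot settle it, so calls with the block are an alternative only. Alternatives were no filter, at least 10 reads in every library, a pseudocount of 0.1, the replicate block, rescaling by the median of ratios, voom on recovered reads, each library left out, an adjusted p of 0.1, a distance limit of 0.75, and an interferon list without GTPases and chemokines.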

Additional observations from a re-analysis of the deposited data

How the results depend on the processing

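The replicate block gave 352 genes higher and 503 lower over all genes (232 and 428 without it), 3 TRIM members higher in place of 0, and 19 interferon genes higher in place of 2. It changed no other call among the TRIM members. Without a filter 141 genes, 0 TRIM members and 1 interferon gene were higher, and 2 TRIM members (*Trim16* and *Trim65*) were lower. With rescaling by the median of ratios, and with voom, 1 interferon gene was higher. At an adjusted p of 0.1, 2 TRIM members were higher (*Trim12a* and *Trim25*), beside 5.66% of all tested genes. Leaving out 1 library at a time gave 1 to 529 genes higher and 7 to 804 lower, 0 to 4 TRIM members higher and 0 to 3 lower, 0 to 18 interferon genes higher and 0 to 1 lower, and 5 to 9 close members. The 4 higher members were found without control library 1 (*Trim12a*, *Trim14*, *Trim25* and *Trim26*, with *Trim13*, *Trim16* and *Trim33* lower), and 2 without control library 3 (*Trim12a* and *Trim3*). Without knockout library 1, knockout library 2 or control library 2, none of the members was called. Distances use no fitted test and were not computed for the block or voom. In the other alternatives the 7 close members stayed close, except without control library 3, where *Trim30a* and *Trim30d* were lost. Over the 29 tested members and 14 other tested genes (*Timd4*, *Lyz2*, *Pml*, *Mefv*, *Mid1* and 9 named from the interferon, enzyme and sensor lists), 461 alternative values kept their direction and side of the threshold, 16 moved past it, 23 fell short of it and 16 changed sign. The sign changes were *Mid1* (0.0263 with rescaling, 0.0347 with voom, 0.0170 without knockout library 3 and 0.0454 without control library 1, in a range of -0.152 to 0.0454 over the libraries left out), *Trim28* (0.0253 with rescaling and 0.0026 with voom), *Trim44* (0.0433 and 0.0259), *Trim47* (-0.104 without knockout library 3, in a range up to 0.272), *Mavs* (0.0025 with a pseudocount of 0.1, 0.106 with rescaling, 0.128 with voom, and 0.110 without knockout library 1 and 0.174 without control library 3, in a range from -0.112) and *Iigp1* (0.0968 and 0.0706 without control libraries 1 and 2, and -1.43 without control library 3), and their cause was not tested. Members with few reads are limited by depth, and 4 of the 19 untested members had means below 10 reads.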

Other observations

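The interferon median turned upside down was compared with the members as well, a comparison chosen after the values were seen. *Trim13* lay at a distance of 0.307 from it, *Trim8* at 0.517, *Trim33* at 0.654, *Trim27* at 0.693 and *Trim36* at 0.694. Within a distance of 0.75 there were 5 of the 29 tested members, where 18.7% of all tested genes were, so the members' share was near that of all genes.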
